A study of Mus musculus with 12 samples.

Results

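The comparison is of C2C12 cells after 8 days of differentiation with C2C12 cells after 2 days of differentiation. The 3 arrays that the labels assign to day 8 and the 3 assigned to day 2 make up 6 of the 12 arrays of the study. C2C12 is an immortalised mouse myoblast line, and the cells were grown in 10% fetal bovine serum to 80 to 90% confluence before the medium was changed to 2% horse serum for 2, 5 or 8 days. Both stages compared here therefore stood in the same horse serum medium and differed in the time spent in it, and no other agent or allele separates them. The labels describe 3 independent experiments for each stage and do not say how separate the cultures were, so the p values speak only of how far these arrays scatter, which may be technical. The remaining 6 arrays, of proliferating cells and of day 5, entered the estimate of the spread and are otherwise used only where named.

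Myoblasts that leave the cell cycle switch on myogenin, align, fuse into multinucleated myotubes and assemble sarcomeres, the repeating units of actin and myosin that shorten the fibre. Contractile proteins come in families whose members are used at different ages, with embryonic and neonatal forms made before adult fast and slow forms. Cultures of this line also keep mononucleated cells that do not fuse, so each array reads RNA from a mixture. A lower signal from fewer cells of a type and a lower signal from less RNA per cell cannot be told apart in such data.

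Total RNA, labelled with Cy3, was read on a custom Agilent array that carries mRNA probes and probes for long non-coding transcripts. All signals below are log2 processed intensities after subtraction of the array's 75th percentile, so 0 is the level of the 75th percentile of that array, and a difference of 1 is a 2-fold change. The 75th percentile lay between 1295 and 1820 intensity units on the day 8 arrays and between 1450 and 1565 on the day 2 arrays. Between 60.5% and 63.3% of spots were well above background on the day 8 arrays, and between 60.2% and 68.6% on the day 2 arrays. Pearson's r across probes was 0.992 to 0.993 among the day 8 arrays, 0.989 to 0.993 among the day 2 arrays and 0.947 to 0.956 between the stages. Per the file headers the 3 day 8 arrays lay on 1 slide, which they shared with 1 array of day 5, while the day 2 arrays lay on 2 other slides. No slide held both stages. A fit with slide as a term links the stages only through the day 5 arrays, and its counts are given beside the lists in which it changed the number of higher or lower calls by over 1.5 times. Of 330 values of named genes and transcripts, some of them not called without slide either, 110 lost their call in that fit. Not each of these losses is repeated below.

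All 7 markers chosen for the labelled cell, the myotube, were well above background on all 6 arrays, and 7 of 7 were higher at day 8. Myogenin (Myog), which switches on the late muscle genes, had signals of 4.91, 5.27 and 5.19 at day 8, against 1.70, 2.36 and 1.45 at day 2. The day 8 and day 2 arrays did not overlap, and the log2 difference was 3.29 ± 0.24 (SE; limma, Benjamini-Hochberg adjusted p = 1.51e-06). The value after ± is the SE of a difference throughout unless SD is named, and rose or fell is written only of genes past an adjusted p of 0.05. Myoglobin (Mb), the oxygen store of muscle, differed by 6.79 ± 0.41 and the muscle creatine kinase Ckm by 4.68 ± 0.23. Desmin (Des), the muscle intermediate filament, had signals of 1.88, 2.25 and 2.76 at day 8 and 1.81, 0.54 and 1.31 at day 2, a difference of 1.08 (limma adjusted p = 0.0167) that did not pass with slide in the fit (adjusted p = 0.218).

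Of 22699 probes well above background on all 3 arrays of either stage, 11243 differed between the stages at a limma adjusted p under 0.05, which is 49.5%. Higher signals at day 8 were called for 4690 probes (20.7%) and lower signals for 6553 (28.9%). Counted once per gene by its brightest probe, 2688 of 13624 genes were higher at day 8 (19.7%) and 4235 were lower (31.1%), 50.8% in all. The 19.7% and 31.1% are the shares against which the counts of the lists below are to be read. The median log2 difference was -0.21 over these genes and -0.18 over all tested probes. By the fitted difference, 191 genes were over 8-fold higher and 194 over 8-fold lower, while 36 were over 32-fold higher and 2 over 32-fold lower. Slide in the fit left 3842 probes called, of which 3557 had been called in the same direction without it and 1 in the opposite one. In that fit 8.26% of genes were higher and 10.0% were lower. Higher calls made up 41.7% of the called probes, 51.9% after quantile normalization and 51.4% with slide in the fit. The balance of higher and lower calls thus changed with the scaling and, separately, with the slide term. Quantile normalization moved the median over all tested probes from -0.18 to -0.04, and small differences have to be read against that shift.

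**Figure D1:**
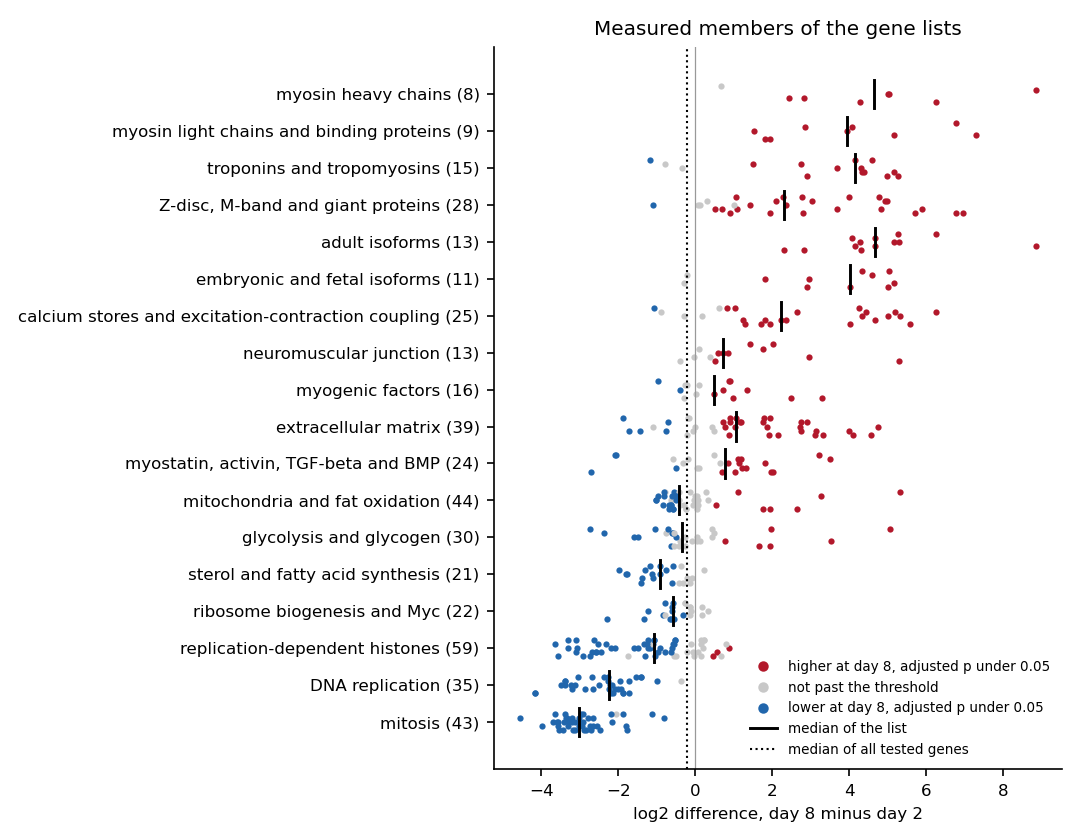
Each row is 1 of the gene lists described here, with the log2 difference between day 8 and day 2 on the horizontal axis and 1 point per measured gene, coloured by its call. Adult isoforms all lie to the right of 0 (median 4.66) and DNA replication genes all to the left (median -2.23), against a median of -0.21 over all tested genes.

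The contractile apparatus held the largest rises. Of 8 measured myosin heavy chain genes 7 rose, with a median log2 difference of 4.64 against -0.21 over all tested genes. Myh4, the heavy chain of the fastest adult fibres, had signals of 4.65, 3.99 and 4.45 at day 8, against -4.46, -4.09 and -4.93 at day 2. All 3 day 8 arrays lay far above all 3 day 2 arrays, a log2 difference of 8.86 ± 0.24, or 465-fold, and the largest rise among genes well above background on all 6 arrays (limma adjusted p = 7.73e-09). Myh1, the chain of another adult fast fibre type, had 3.53, 3.48 and 3.31 at day 8 and -2.71, -2.38 and -3.39 at day 2, a difference of 6.26 ± 0.25. Myh3, the embryonic chain, had 5.00, 5.02 and 5.17 at day 8 and -0.16, 0.50 and -0.28 at day 2, a difference of 5.05 ± 0.21. Adult fast and embryonic chains thus both rose, without overlap between the stages. Myh7, the chain of slow fibres and of the heart, differed by 4.28 ± 0.22, and the neonatal chain Myh8, above background on 1 of 3 day 2 arrays, by 5.00 ± 0.27. Myh2, of intermediate fast fibres, rose by 2.83 ± 0.49 (limma adjusted p = 0.000799), and 0.114 was its adjusted p with slide in the fit. The cardiac chain Myh6 differed by 0.68 ± 0.27 and did not pass (limma adjusted p = 0.0588). These chains have similar sequences, and cross-hybridisation between their probes was not tested.

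Myosin light chains and myosin-binding proteins rose in 9 of 9 measured cases, with a median of 3.93. Myl2, the regulatory light chain of slow fibres and ventricle, had signals of 1.72, 2.82 and 1.74 at day 8 and -4.44, -4.80 and -4.81 at day 2, a difference of 6.78 ± 0.32. Mylpf, its counterpart in fast fibres, had 7.13, 7.28 and 7.35 at day 8 and 3.36, 3.32 and 2.87 at day 2, a difference of 4.07 ± 0.21. The fetal and atrial light chain Myl4 differed by 5.17 ± 0.20. Mybpc2, the fast form of myosin-binding protein C, had one of the widest gaps of the group, 7.29 ± 0.30, with 2 of 3 day 2 arrays above background.

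Troponins, which make the thin filament answer to calcium, and tropomyosins, which lie along it, gave 12 higher and 1 lower of 15 measured genes, with a median of 4.14. Fast troponin C (Tnnc2) had signals of 5.41, 5.21 and 4.74 at day 8 and -0.25, 0.02 and -0.22 at day 2, a difference of 5.27 ± 0.27. Slow and cardiac troponin C (Tnnc1) had 6.80, 6.92 and 6.83 at day 8 and 2.39, 2.34 and 2.04 at day 2, a difference of 4.60 ± 0.23. The fast troponin T gene Tnnt3 differed by 5.17 ± 0.26, the slow Tnnt1 by 4.14 ± 0.15, the fast troponin I gene Tnni2 by 4.31 ± 0.27 and the slow Tnni1 by 4.33 ± 0.20. These 6 differences lay between 4.14 and 5.27 and were not tested against each other. The exception in the family was Tpm3, a tropomyosin used in slow fibres and in the cytoskeleton of other cells, with 1.73, 2.27 and 1.80 at day 8 and 3.21, 2.92 and 3.17 at day 2, a difference of -1.17 ± 0.16 (limma adjusted p = 0.000208). With slide in the fit its adjusted p was 0.0575.

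Among genes of the Z-disc, which anchors the thin filaments, of the M-band and of the giant scaffold proteins, 23 of 28 measured genes rose and 1 fell, with a median of 2.31. Tcap, which caps titin at the Z-disc, had signals of 1.04, 1.66 and 0.72 at day 8 and -5.55, -5.91 and -6.02 at day 2, a difference of 6.97 ± 0.23, the second largest rise among genes above background on all 6 arrays. Actn2, the muscle alpha-actinin, differed by 6.78 ± 0.41, with 1 of 3 day 2 arrays above background. Myoz2, a calcineurin-binding Z-disc protein, differed by 5.91 ± 0.14 and the muscle LIM protein Csrp3 by 5.70 ± 0.21. Abra, an actin-binding protein of striated muscle, was also among the 10 largest rises so limited, with 6.53 ± 0.18. Xirp2, an actin-binding repeat protein, went the other way, with -3.54, -3.46 and -3.66 at day 8 and -2.79, -2.39 and -2.21 at day 2, a difference of -1.09 ± 0.19 (limma adjusted p = 0.000944). After slide entered the fit, 17 of these genes were higher and the fall of Xirp2 was still called.

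In the actin family the striated muscle forms rose. The cardiac form Actc1, which developing skeletal muscle also makes, had signals of 5.59, 5.42 and 5.74 at day 8 and 1.66, 2.05 and 0.99 at day 2, a difference of 4.02 ± 0.25. The skeletal form Acta1 had 7.98, 7.40 and 7.96 at day 8 and 5.63, 5.75 and 5.05 at day 2, a difference of 2.30 ± 0.22. Of the cytoplasmic actins Actg1 fell by 0.70 ± 0.17 (limma adjusted p = 0.00634) and Actb fell by 0.47 ± 0.16 (limma adjusted p = 0.0341). Neither of these small falls passed after quantile normalization or with slide in the fit. The smooth muscle forms Acta2 and Actg2 differed by -0.10 ± 0.18 and 0.21 ± 0.44 and did not pass.

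**Figure D2:**
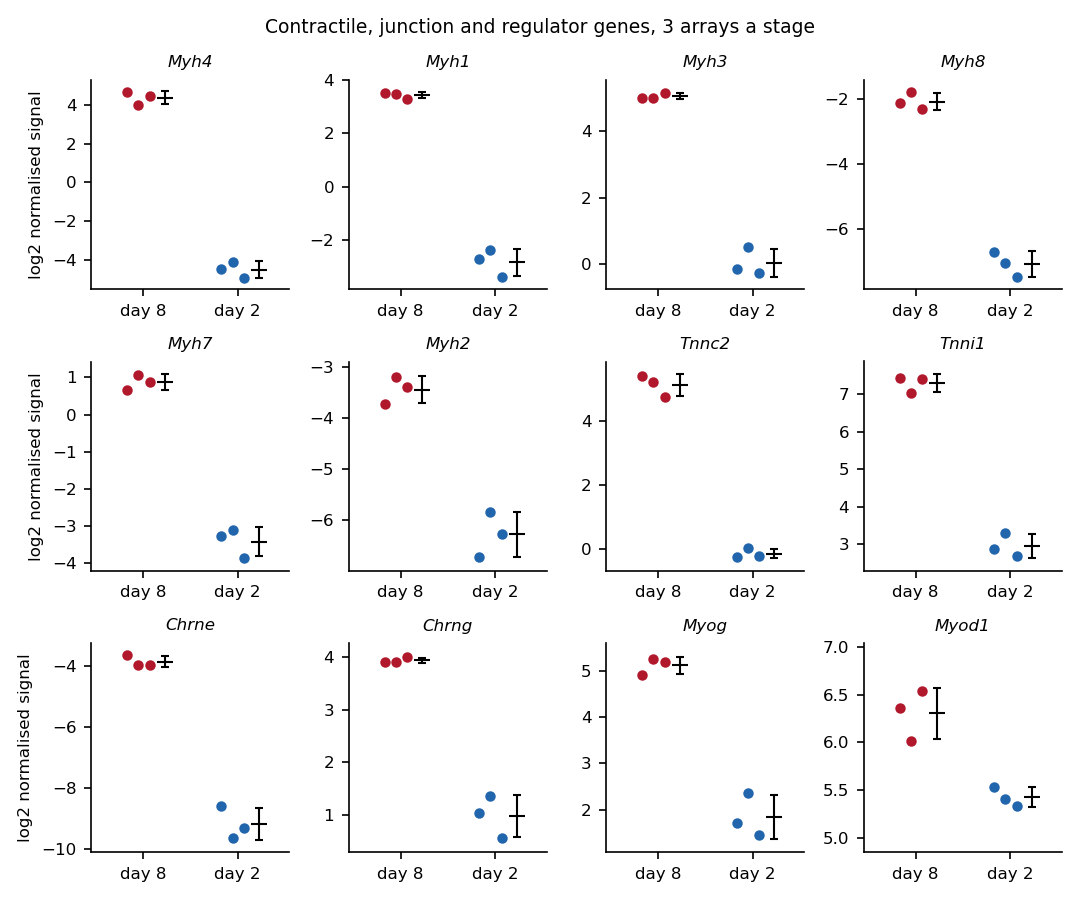
Each panel shows 1 muscle gene, with the log2 normalised signal on the vertical axis, the 3 day 8 arrays on the left, the 3 day 2 arrays on the right, and the mean and SD beside the points. Myh4 reads 4.65, 3.99 and 4.45 at day 8, against -4.46, -4.09 and -4.93 at day 2, and the arrays of the stages do not overlap.

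Developmental and adult forms of the same proteins were listed separately. The embryonic and fetal list also holds Tnnc1, Tnni1 and Atp2a2, which slow fibres use, while the slow forms Myh7 and Tnnt1 stand in the adult list. The lists therefore do not cleanly separate developmental from adult forms. Among embryonic and fetal forms 9 of 11 were higher at day 8 and none was lower, with a median of 4.02. Adult forms gave 13 of 13 higher, with a median of 4.66. The members of the embryonic and fetal list that did not pass were Atp2a2, the calcium pump of slow and cardiac muscle (-0.30 ± 0.13), and the brain creatine kinase Ckb (-0.22 ± 0.15). Their counterparts in the adult list rose, the fast-fibre calcium pump Atp2a1 by 4.66 ± 0.37 and Ckm by 4.68 ± 0.23. For Atp2a2 the value depended on the probe: the median over its tested probes gave 0.70 (limma adjusted p = 0.00071). No fall of a member of the embryonic and fetal list was called between day 2 and day 8.

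The day 5 arrays place these rises in time. Most of the 2688 higher genes, 75.7%, had a day 5 mean between those of day 2 and day 8, and at that point a median of 58.6% of the log2 difference had been covered (2036 genes). A further 18.0% had a day 5 mean above both. Of the 11 members of the embryonic and fetal list, 0 had all 3 day 5 arrays below all 3 day 8 arrays and 3 had them all above. Of the 13 adult forms, 4 had all day 5 arrays below the day 8 arrays and 3 had them above. Over all tested genes the day 8 arrays lay above the day 5 arrays in 16.9% and below them in 21.0%, and counts this small show nothing particular to either list. The median day 8 minus day 5 difference was -0.10 in the embryonic and fetal list and 0.06 in the adult list. From day 2 to day 5 the medians were 4.03 and 4.28, so by these medians both lists were near their day 8 level at day 5. Myh4 averaged -4.50 ± 0.42 at day 2, 0.05 ± 0.29 at day 5 and 4.36 ± 0.34 at day 8 (SD, n = 3 each). Myh1 averaged -2.83 ± 0.52, 1.38 ± 0.24 and 3.44 ± 0.12 at day 2, day 5 and day 8. Both fast chains thus climbed through the whole interval, whereas Myh3 averaged 0.02 ± 0.42, 5.01 ± 0.25 and 5.07 ± 0.09 at the same stages and was near its day 8 level by day 5. These positions are descriptions, and the day 5 arrays lay on the slides of both other stages.

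**Figure D3:**
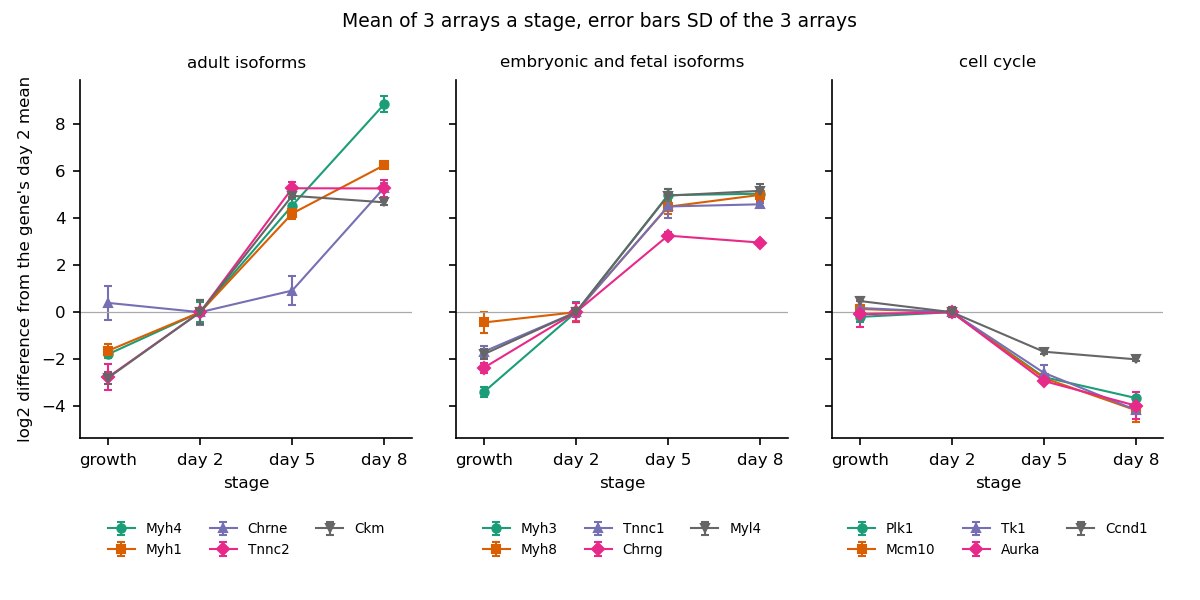
The vertical axis is the difference of each gene's mean log2 signal from its own day 2 mean, the horizontal axis runs over growth (proliferation), day 2, day 5 and day 8, and bars are the SD of 3 arrays. Myh4 rises through day 8, Chrne is above background at day 8 alone, the forms shown from the embryonic and fetal list are near their day 8 level at day 5, and Plk1 and Mcm10 fall most between day 2 and day 5. Over the whole lists the median day 8 minus day 5 difference was 0.06 for adult and -0.10 for embryonic and fetal forms.

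Genes of calcium storage and of the coupling between membrane voltage and calcium release gave 20 higher and 1 lower of 25, with a median of 2.23. Casq1, the calcium buffer of the sarcoplasmic reticulum, had signals of 1.61, 1.52 and 1.67 at day 8 and -4.33, -4.79 and -4.84 at day 2, a difference of 6.26 ± 0.16 with no overlap between the stages. Pvalb, a soluble calcium buffer of fast fibres, differed by 5.33 ± 0.54, with 1 of 3 day 2 arrays above background. Cav3, the caveolin of the muscle membrane, and Trdn, triadin, which holds the release channel in place, were well above background on all 3 day 8 arrays and on no day 2 array. For both only a bound can be given, since the day 2 level lies under the lowest signal that the arrays read above background. Cav3 was at least 20.2-fold and Trdn at least 8.53-fold higher at day 8. The calls of such genes used signals under background and do not test the bound. Cacna1s, the voltage sensor of the T-tubule, went against the group, with -4.88, -5.37 and -5.01 at day 8 and -4.04, -3.65 and -4.31 at day 2, a difference of -1.09 ± 0.31 (limma adjusted p = 0.0139). It did not pass with slide in the fit (adjusted p = 0.429).

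At the neuromuscular junction 9 of 13 measured genes were higher and none was lower, with a median of 0.73. The acetylcholine receptor of fetal muscle carries a gamma subunit (Chrng), which an epsilon subunit (Chrne) replaces in adult muscle. Chrng had signals of 3.92, 3.91 and 4.0 at day 8 and 1.02, 1.35 and 0.55 at day 2, a difference of 2.97 ± 0.20. Chrne had -3.65, -3.97 and -3.96 at day 8, all above background, and -8.58, -9.62 and -9.30 at day 2, none above background. By that bound Chrne was at least 11.6-fold higher at day 8. Chrng averaged 0.98 ± 0.40 at day 2, 4.24 ± 0.16 at day 5 and 3.94 ± 0.05 at day 8, and Chrne -9.17 ± 0.53, -8.25 ± 0.61 and -3.86 ± 0.18 (SD). The gamma subunit was near its day 8 level at day 5. The epsilon subunit was above background on no array of day 5 or day 2, so its levels at those stages were not measured and cannot be compared.

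The shared receptor subunits moved less. The delta subunit Chrnd rose by 1.43 ± 0.12, the alpha subunit Chrna1 by 0.60 ± 0.19, and the beta subunit Chrnb1 differed by 0.10 ± 0.15 without passing. Lrp4, the agrin receptor, rose by 2.01 ± 0.15 and Dok7, the activator of its partner kinase MuSK, by 1.76 ± 0.15. Musk itself rose by 0.52 ± 0.14 (limma adjusted p = 0.0108), while the receptor-clustering protein Rapsn differed by -0.02 ± 0.17. The 5 genes of the 13 called with slide in the fit were Chrne, Chrng, Lrp4, Dok7 and Chrnd. Ion channels and pumps of the membrane gave 6 higher of 9 and none lower, including the potassium channel Kcnj12 with 2.80 ± 0.11. The muscle sodium channel Scn4a was not well above background at day 2 and was at least 6.19-fold higher at day 8.

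The promoters of Myh4, Chrng and Chrne are shown as examples of a fast heavy chain and of the fetal and adult receptor subunits, all of which were higher at day 8. Each line gives the 160 bases that end just before the annotated transcription start, from RefSeq on the GRCm38.p6 build, 5′ to 3′ on the gene's strand, with matches to CAGCTG in capitals. CAGCTG is the E-box core that MyoD and myogenin are known to bind, and it is its own reverse complement. The windows are Myh4 at chr11:67237652-67237811 on the plus strand, Chrng at chr1:87205651-87205810 on the plus strand and Chrne at chr11:70619195-70619354 on the minus strand.
Myh4: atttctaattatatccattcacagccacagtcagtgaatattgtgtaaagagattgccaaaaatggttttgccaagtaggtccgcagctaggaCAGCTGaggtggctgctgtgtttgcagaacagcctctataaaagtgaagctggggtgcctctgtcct
Chrng: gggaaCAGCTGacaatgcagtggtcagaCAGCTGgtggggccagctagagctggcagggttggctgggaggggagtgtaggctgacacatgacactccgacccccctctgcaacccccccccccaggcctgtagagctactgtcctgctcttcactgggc
Chrne: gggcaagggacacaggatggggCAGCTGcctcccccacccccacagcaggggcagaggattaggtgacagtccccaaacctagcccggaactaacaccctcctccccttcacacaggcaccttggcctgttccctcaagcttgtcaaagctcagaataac
Counting back from the start, which follows position -1, the match in Myh4 begins at -67, those in Chrng at -155 and -132, and that in Chrne at -138. Over a window of 250 bases before to 50 after the start, CAGCTG occurs in 16.3% of all 32851 mouse promoters in the table. It occurs in 7 of 11 promoters (63.6%) of the myosin light chain list, 6 of 12 (50%) of the adult isoforms, 6 of 15 (40%) of the troponin list, 9 of 22 (40.9%) of the calcium list and 4 of 11 (36.4%) of the junction list. Of the myosin heavy chain promoters 1 of 10 (10%) holds it, and that is the Myh4 promoter shown. The MEF2 motif, searched on both strands, occurs in 6 of 29 promoters (20.7%) of the Z-disc list and in 0.557% of all promoters, and in none of those of the heavy chain, light chain, troponin, adult isoform, calcium and junction lists. The table held 10 of 11 light chain genes, 11 of 13 adult isoforms, 12 of 15 troponins and tropomyosins, 16 of 27 calcium genes, 9 of 14 junction genes, 9 of 9 heavy chains and 23 of 32 Z-disc genes, some with several starts. A match describes the letters of the window only and does not show that a factor binds there.

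Transcription factors of the muscle programme gave 8 higher and 2 lower of 16, with a median of 0.49. Mef2c, a partner of the myogenic factors, had signals of -3.03, -2.62 and -3.41 at day 8 and -5.65, -5.29 and -5.60 at day 2, a difference of 2.49 ± 0.22. Myod1, the factor that commits cells to muscle, had 6.36, 6.01 and 6.54 at day 8 and 5.54, 5.41 and 5.33 at day 2, a difference of 0.88 ± 0.17 (limma adjusted p = 0.00149). Tcf12, an E protein that pairs with these factors, rose by 0.90 ± 0.12. Mef2b fell by 0.97 ± 0.25 and Myf5, the factor of undifferentiated myoblasts, fell by 0.41 ± 0.15, although the Myf5 arrays overlapped between the stages. Myf6, the late myogenic factor of the family, differed by -0.20 ± 0.18 and did not pass (limma adjusted p = 0.359). Slide in the fit left Myog, Mef2c, Tead4 and Tcf12 higher and no factor lower.

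Fusion and adhesion genes gave 6 higher and 5 lower of 18, or 33.3% and 27.8%. Over all tested genes these shares were 19.7% and 31.1%. Mymk (myomaker), a membrane protein that myoblasts need in order to fuse, had signals of 3.74, 3.77 and 3.71 at day 8 and -0.33, -0.11 and -0.80 at day 2, a difference of 4.15 ± 0.18. Elmo1, which activates Rac with Dock1, rose by 2.08 ± 0.15 and the adhesion molecule Ncam1 by 1.81 ± 0.16. Adgrb1, a receptor for phosphatidylserine, fell by 1.68 ± 0.27, the adhesion protein Kirrel fell by 1.03 ± 0.15, the junction protein Jam2 fell by 0.96 ± 0.14, and M-cadherin (Cdh15) fell by 0.67 ± 0.22. Mymk, Elmo1 and Ncam1 were called with slide in the fit, and none of the falls was. Satellite and reserve cell markers gave 5 higher and 3 lower of 14, or 35.7% and 21.4%. The chemokine receptor Cxcr4 rose by 1.96 ± 0.21, the 1 call left with slide in the fit. The summed signal of these markers, relative to the 75th percentile, was 100 to 120 at day 8 and 113 to 133 at day 2, ranges that overlap.

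In the list of phosphate and oxygen buffers 5 of 10 rose and none fell, led by Mb and Ckm, with Ampd1, the muscle AMP deaminase, at 2.16 ± 0.40. Glycolysis and glycogen genes gave 6 higher and 10 lower of 30, shares of 20% and 33.3% that lie near the 19.7% and 31.1% of all tested genes. The muscle phosphoglycerate mutase Pgam2 had signals of 3.01, 3.18 and 2.99 at day 8 and -1.87, -1.82 and -2.35 at day 2, a difference of 5.07 ± 0.42, and the muscle glycogen phosphorylase Pygm rose by 3.53 ± 0.21. The falls included the brain aldolase Aldoc (-1.59 ± 0.34), Pfkfb1, which sets the level of a glycolytic activator (-2.36 ± 0.13), and the widely used glucose transporter Slc2a1 (-1.50 ± 0.12). After slide entered the fit, 4 of these 30 genes were higher and 4 lower. Quantile normalization gave 8 higher and 7 lower.

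Mitochondrial and fat oxidation genes gave 7 higher and 18 lower of 44, with a median of -0.41. The muscle forms of cytochrome oxidase subunits stood out, with Cox6a2 at 4.60, 4.90 and 5.02 at day 8 and -0.59, -0.17 and -0.71 at day 2, a difference of 5.33 ± 0.20. Cox8b, another muscle and heart form, rose by 3.28 ± 0.19, and lipoprotein lipase (Lpl), which frees fatty acids from circulating lipid, by 1.95 ± 0.33. Cox6a1, the ubiquitous form of the same subunit as Cox6a2, had 5.24, 5.02 and 5.38 at day 8 and 6.41, 6.11 and 6.06 at day 2, a difference of -0.98 ± 0.19 (limma adjusted p = 0.00181). Citrate synthase (Cs) fell by 0.85 ± 0.20. With slide in the fit 5 genes of the list were higher and none was lower, and quantile normalization gave 8 higher and 9 lower.

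Cell cycle genes fell as a body. Of 43 measured mitosis genes 42 were lower at day 8 and none was higher, with a median of -3.03. Survivin (Birc5), a member of the chromosomal passenger complex, had signals of -0.15, 1.26 and 0.09 at day 8 and 5.12, 4.69 and 5.06 at day 2, and its difference of -4.56 ± 0.31 was the largest fall among genes above background on all 6 arrays (limma adjusted p = 1.12e-06). The second day 8 array was the highest of its group for Birc5 and still lay well under every day 2 array. Polo-like kinase 1 (Plk1), which drives entry into mitosis, had 1.83, 1.87 and 1.92 at day 8 and 5.49, 5.62 and 5.49 at day 2, a difference of -3.66 ± 0.14, or 12.6-fold. Aurora kinase A (Aurka), of the spindle poles, fell by 3.98 ± 0.30 and Ube2c, the ubiquitin-conjugating enzyme of the anaphase-promoting complex, fell by 3.70 ± 0.33. The count was 40 of 43 with slide in the fit.

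DNA replication genes gave 34 lower of 35 and none higher, with a median of -2.23. Mcm10, which helps start replication forks, had signals of -2.07, -1.09 and -1.74 at day 8 and 2.37, 2.51 and 2.74 at day 2, a difference of -4.18 ± 0.23. Thymidine kinase 1 (Tk1), which supplies thymidine nucleotides in S phase, had 1.28, 1.45 and 1.38 at day 8 and 5.47, 5.36 and 5.77 at day 2, a difference of -4.17 ± 0.18. The helicase subunit Mcm3 fell by 3.50 ± 0.29 and the polymerase subunit Pole fell by 3.39 ± 0.23, and 33 of the 35 genes were lower with slide in the fit. Other cycle-linked genes among the 10 largest falls under the same limit were Ccnf (-4.26 ± 0.37), a substrate adaptor of a ubiquitin ligase, Melk (-4.12 ± 0.22), a kinase of dividing cells, Lrr1 (-4.08 ± 0.19), an adaptor that helps unload the replicative helicase, and Fancd2 (-4.05 ± 0.40), of DNA crosslink repair. Histone genes of S phase, matched partly through their older symbols, gave 39 lower and 3 higher of 59, with a median of -1.08. H2ac11 fell by 3.56 ± 0.21 and H3c3 fell by 3.30 ± 0.29, while H1f4, H1f2 and H3c15 rose by 0.86, 0.55 and 0.47. Copies of these genes are nearly identical, so the values of single histone genes are uncertain, and slide in the fit left 25 lower and 0 higher.

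**Figure D4:**
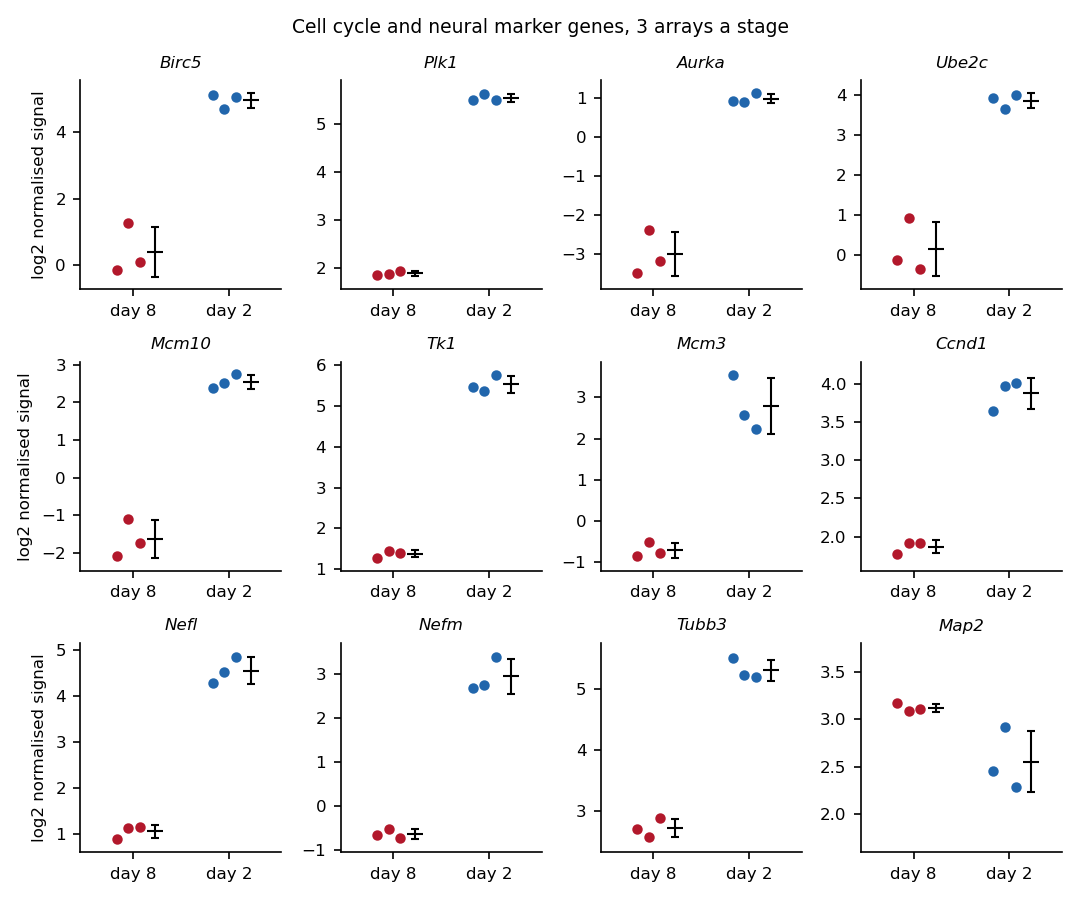
Each panel shows 1 gene of the cell cycle or neural marker lists, with the log2 normalised signal on the vertical axis, day 8 arrays on the left, day 2 arrays on the right, and the mean and SD of 3 arrays. Plk1 reads 1.83, 1.87 and 1.92 at day 8 and 5.49, 5.62 and 5.49 at day 2, and Map2 is the panel in which day 8 lies higher.

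Over the 4235 lower genes, 79.3% had a day 5 mean between those of day 2 and day 8, with a median of 59.2% of the difference covered (3360 genes), and 16.1% lay below both. In the mitosis list the median difference was -2.46 between day 5 and day 2 and -0.51 between day 8 and day 5, and in the DNA replication list it was -1.54 and -0.69. Plk1 averaged 5.53 ± 0.08 at day 2, 2.77 ± 0.14 at day 5 and 1.88 ± 0.04 at day 8 (SD).

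Of the genes that restrain the cycle or drive its start, 3 were higher and 5 lower of 15, again 20% and 33.3%, near the shares over all genes. Gadd45a, a stress-induced growth arrest gene, rose by 1.23 ± 0.11, and the pocket proteins Rb1 and Rbl2, which hold E2F factors in check, by 0.90 ± 0.12 and 0.83 ± 0.24. Their relative Rbl1 (p107) went the other way with -1.61 ± 0.28. Cyclin D1 (Ccnd1), which opens the G1 phase, had signals of 1.77, 1.92 and 1.92 at day 8 and 3.64, 3.97 and 4.01 at day 2, a difference of -2.01 ± 0.14. The cyclin-dependent kinase inhibitor Cdkn2c fell by 1.02 ± 0.13 and its relative Cdkn2d fell by 1.37 ± 0.14. Ribosome biogenesis genes and Myc gave 12 lower of 22 and none higher, among them Myc with -1.32 ± 0.22 and the nucleolar proteins Nop56 with -2.30 ± 0.41 and Fbl with -1.23 ± 0.21. That count fell to 1 of 22 with slide in the fit.

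The promoters of Aurka, Ube2c and Mcm3, a kinase, a ubiquitin enzyme and a helicase subunit of the lists that fell, are shown as windows that hold CCAAT, in Ube2c together with TTTGAA. The lines give the 160 bases before the start from RefSeq on GRCm38.p6, 5′ to 3′ on the gene's strand, with capitals for CCAAT (the box bound by the factor NF-Y, ATTGG on the other strand) and for TTTGAA (the CHR element of cell cycle promoters, TTCAAA on the other strand). The windows are Aurka at chr2:172370571-172370730 on the minus strand, Ube2c at chr2:164769769-164769928 on the plus strand and Mcm3 at chr1:20820313-20820472 on the minus strand.
Aurka: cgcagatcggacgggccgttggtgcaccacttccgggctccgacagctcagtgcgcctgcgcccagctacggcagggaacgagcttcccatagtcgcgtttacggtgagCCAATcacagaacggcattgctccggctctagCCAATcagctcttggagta
Ube2c: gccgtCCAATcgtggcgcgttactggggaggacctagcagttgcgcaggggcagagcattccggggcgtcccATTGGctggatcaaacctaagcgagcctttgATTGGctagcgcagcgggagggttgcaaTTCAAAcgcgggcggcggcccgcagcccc
Mcm3: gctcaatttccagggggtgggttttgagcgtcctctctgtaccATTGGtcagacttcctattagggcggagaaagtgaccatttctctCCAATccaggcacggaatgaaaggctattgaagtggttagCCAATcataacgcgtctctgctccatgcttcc
Aurka holds CCAAT at -51 and -19, and Mcm3 at -117, -72 and -32. Ube2c holds it at -155, -88 and -57, with TTTGAA at -29. Not each window of these lists holds them: that of Tk1 has no match to CCAAT or TTTGAA in the same 160 bases. In the window of 250 bases before to 50 after the start, CCAAT occurs in 31 of 41 mitosis promoters (75.6%) and 23 of 37 DNA replication promoters (62.2%), against 37.4% of all promoters. TTTGAA occurs in 27 of 41 mitosis promoters (65.9%), against 17.9% of all, and an E2F element, TTTCCCGC or TTTGGCGC, in 11 of 37 DNA replication promoters (29.7%), against 1.56% of all. The table held 37 of 45 mitosis genes and 30 of 36 DNA replication genes. No match in these 3 windows overlaps another, and none of the windows holds the E2F element. A match only describes the letters there.

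Growth factor genes held some of the widest differences outside the sarcomere. In the insulin-like growth factor axis 5 of 11 were higher and 2 lower. Igf1, a secreted factor that promotes muscle growth, had signals of 2.04, 2.04 and 2.26 at day 8 and -3.49, -3.33 and -4.17 at day 2, a difference of 5.77 ± 0.31. Igf2, the fetal factor that myoblasts secrete as they differentiate, had 3.41, 3.37 and 3.43 at day 8 and -0.98, -0.41 and -1.76 at day 2, a difference of 4.45 ± 0.29. Neither factor overlapped between the stages. The binding proteins were divided: Igfbp4 rose by 1.48 ± 0.23 and Igfbp5 by 0.88 ± 0.29, while Igfbp2 fell by 1.85 ± 0.15 and Igfbp6 fell by 0.63 ± 0.20. Slide in the fit kept the calls of Igf1, Igf2 and Igfbp2. Among other imprinted genes 3 were higher and 4 lower of 13, or 23.1% and 30.8%, near the 19.7% and 31.1% of all tested genes, with Grb10, an adaptor that damps insulin receptor signalling, at 1.96 ± 0.19 and Ndn (necdin), a growth suppressor, at -1.50 ± 0.18, and slide in the fit left 1 higher and 2 lower.

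In the myostatin, activin, TGF-beta and BMP group 13 of 24 rose and 4 fell, with a median of 0.77. Follistatin (Fst), a secreted inhibitor of myostatin and activin, had signals of 0.28, 1.09 and 0.42 at day 8 and -2.43, -2.64 and -2.78 at day 2, a difference of 3.22 ± 0.22. Myostatin (Mstn), which limits muscle mass, was well above background on all 3 day 2 arrays and on no day 8 array. It was at least 3.16-fold lower at day 8. Its limma adjusted p of 0.00052 used day 8 signals under background and does not test that bound. The call was lost with slide in the fit (limma adjusted p = 0.222) and after normexp background correction (limma adjusted p = 0.528). The activin receptor Acvr2a rose by 1.96 ± 0.16, the ligand Tgfb2 by 2.03 ± 0.35, and Gdf5, a BMP family ligand not well above background at day 2, was at least 5.54-fold higher. The BMP antagonist Grem1 (gremlin) fell by 2.06 ± 0.18 and the antagonist Nog (noggin) fell by 2.70 ± 0.56. With slide in the fit 8 were higher and 1, Grem1, lower.

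Helix-loop-helix (bHLH) factors and their partners gave 8 higher and 6 lower of 22, or 36.4% and 27.3%. Over all tested genes these shares were 19.7% and 31.1%. Msc (musculin), a repressor of muscle genes in undifferentiated cells, had signals of -0.04, 0.53 and 0.26 at day 8 and 2.69, 3.12 and 3.24 at day 2, a difference of -2.77 ± 0.21. The Notch target Hey1 fell by 2.08 ± 0.32 and the target Hes1 fell by 0.77 ± 0.13. Id2, an inhibitor of bHLH factors, rose by 1.22 ± 0.17, and the repressor Bhlhe40 by 1.02 ± 0.18. Id2 was the 1 rise of the group called with slide in the fit, beside 3 falls. Splicing regulators gave 5 higher and 3 lower of 12, or 41.7% and 25%. Rbm24, which directs muscle exons, rose by 3.15 ± 0.13, Celf2 by 2.18 ± 0.17 and Qk by 1.17 ± 0.16. Ptbp1, a repressor of tissue-specific exons, fell by 1.36 ± 0.22. The immediate early list gave 2 higher and 7 lower of 20, or 10% and 35%, against 19.7% and 31.1% of all tested genes. Its calls included Fosl1, an AP-1 subunit, at -2.58 ± 0.27 and Egr2 at 1.42 ± 0.31. Slide in the fit left 3 splicing genes higher and none lower, and 1 immediate early gene each way.

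Extracellular matrix genes rose in 26 of 39 cases and fell in 5, with a median of 1.06, and 20 rises and 4 falls were called with slide in the fit. Col6a2, a chain of the collagen VI that surrounds muscle fibres, had signals of 5.10, 4.91 and 5.15 at day 8 and 1.03, 1.34 and 0.81 at day 2, a difference of 3.99 ± 0.16. Cilp, a matrix protein that binds TGF-beta, had 2.84, 2.47 and 3.04 at day 8 and -1.52, -1.91 and -2.44 at day 2, a difference of 4.74 ± 0.44. The small proteoglycans lumican (Lum) and fibromodulin (Fmod), which bind collagen fibrils, differed by 4.10 ± 0.40 and 4.56 ± 0.81, with 2 and 1 of 3 day 2 arrays above background. The falls included the collagen-crosslinking enzyme Loxl2 (-1.88 ± 0.27), Col18a1 of basement membranes (-1.72 ± 0.18) and thrombospondin 2, Thbs2 (-1.43 ± 0.15). In 17 of the 39 genes all day 8 arrays lay above all day 5 arrays, against 16.9% of all tested genes.

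Of the matrix proteases and their inhibitors 5 were higher and 3 lower of 10, or 50% and 30%. Over all tested genes these shares were 19.7% and 31.1%. The rises were led by Mmp3 with 2.91 ± 0.22 and Mmp2 with 1.68 ± 0.20, while Mmp10 fell by 1.35 ± 0.19. With slide in the fit 3 were higher and 1 lower. The dystrophin complex, laminins and integrins gave 10 higher and 4 lower of 19, or 52.6% and 21.1%. In the fit with slide 4 of them were higher and 1 lower. Alpha-sarcoglycan (Sgca), a membrane subunit of the complex, rose by 1.46 ± 0.24 and the muscle laminin chain Lama2 by 1.23 ± 0.19. Itga3, an integrin of epithelia, fell by 0.81 ± 0.24 and the laminin chain Lama5 fell by 0.92 ± 0.21. Sntb1, a syntrophin, was called lower with -1.21 ± 0.44 (limma adjusted p = 0.0421), but 1 of 3 day 8 arrays was above background and slide in the fit turned its sign to 0.51 (adjusted p = 0.462).

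Genes linked to atrophy and autophagy gave 8 higher and 1 lower of 20. Trim63 (MuRF1), a ubiquitin ligase of the sarcomere known from wasting muscle, had signals of -3.06, -2.69 and -2.89 at day 8 and -5.53, -5.84 and -6.11 at day 2, a difference of 2.94 ± 0.29. Its relative Trim54 (MuRF3) rose by 3.24 ± 0.12, and Klf15, a glucocorticoid-induced regulator of amino acid use, by 2.69 ± 0.24. Foxo3, a transcription factor upstream of several of these genes, was called lower, with -0.57 ± 0.18 (limma adjusted p = 0.0217), a sign that normexp background correction turned. With slide in the fit the list gave 3 higher and 0 lower. Heat shock genes and muscle chaperones gave 5 higher and 3 lower of 12, or 41.7% and 25%. Over all tested genes these shares were 19.7% and 31.1%. Hspb7, a small heat shock protein of heart and muscle, differed by 5.90 ± 0.27 and the myosin chaperone Unc45b by 4.78 ± 0.97, both above background on 2 of 3 day 2 arrays, and the methyltransferase Smyd1 by 2.93 ± 0.16. The small heat shock protein Hspb1 fell by 0.89 ± 0.28 and Hsp90aa1, the inducible HSP90, fell by 0.81 ± 0.20, and neither passed with slide in the fit. The call of Unc45b was also lost with slide (adjusted p = 0.125) and when non-uniform spots were left out, and with slide the list gave 2 higher and 0 lower.

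Sterol and fatty acid synthesis gave 14 lower and 0 higher of 21, with a median of -0.91, and 8 lower with slide in the fit. Lanosterol synthase (Lss) had signals of -0.17, -0.06 and -0.10 at day 8 and 1.89, 2.02 and 1.75 at day 2, a difference of -1.99 ± 0.15. Fdps, which makes farnesyl diphosphate, fell by 1.78 ± 0.18. Glutathione and antioxidant enzymes gave 12 lower and 1 higher of 22, with the quinone reductase Nqo1 at -1.69 ± 0.18 and the glutathione synthesis subunit Gclm at -1.22 ± 0.11. The exception was Gpx3, a secreted glutathione peroxidase, with 1.04 ± 0.22, and slide in the fit left 3 lower and 0 higher. Genes of the unfolded protein and amino acid response gave 7 lower and 1 higher of 16, although their median was 0.04. Atf3, a stress-induced factor, fell by 1.81 ± 0.23 and asparagine synthetase (Asns) fell by 0.98 ± 0.14, while Herpud1 rose by 0.62, and slide in the fit left 1 gene called each way.

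Chemokines and cytokines gave 7 higher and 2 lower of 14, with the chemokine Ccl8 at 2.16 ± 0.16, interleukin 6 (Il6) at 1.38 ± 0.22 and the cytokine Lif at 1.12 ± 0.14. Ccl2, a chemokine for monocytes, fell by 1.30 ± 0.37. Interferon response and antigen presentation genes gave 3 higher and 6 lower of 24. These shares of 12.5% and 25% lie under the 19.7% and 31.1% of all tested genes. Among them were Ifit3, an RNA-binding antiviral protein, at 2.05 ± 0.17 and the peptide transporter Tap1 at -0.87 ± 0.16. With slide in the fit 3 and 0 of the first list, and 1 and 1 of the second, were higher and lower.

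**Figure D5:**
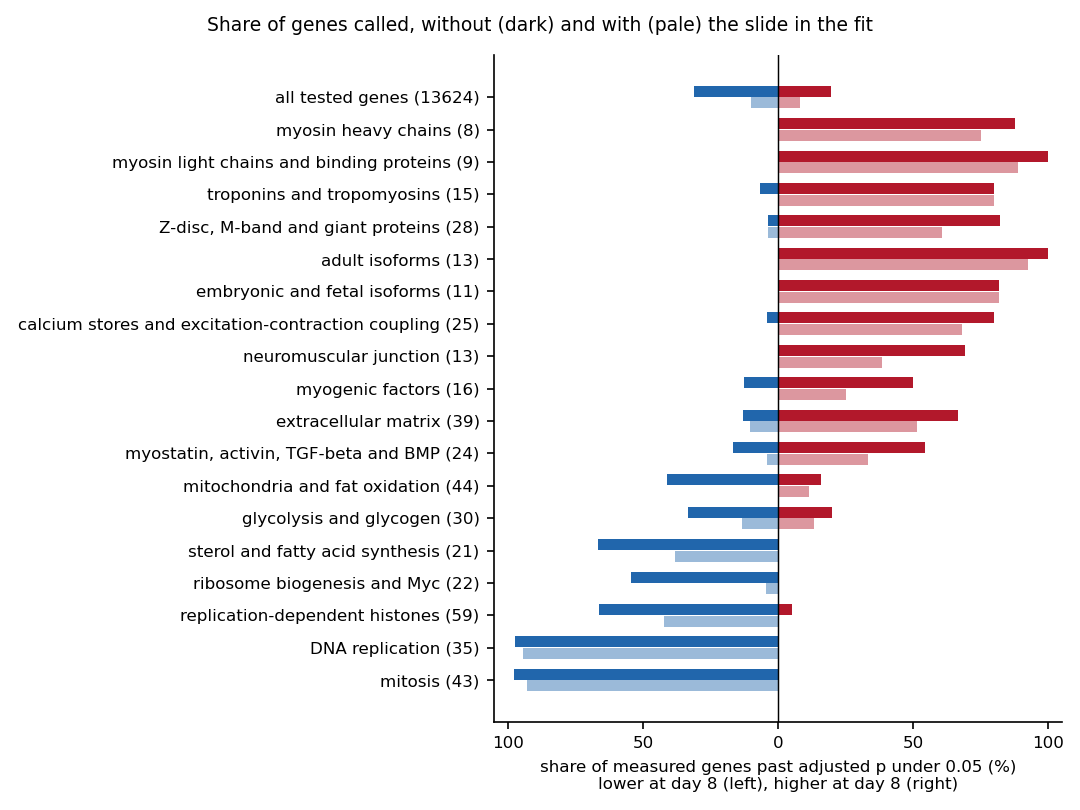
Bars give, for each gene list, the percentage of measured genes called higher at day 8 and lower at day 8, with dark bars for the fit without slide and pale bars for the fit with slide. Mitosis and DNA replication keep nearly their whole share of lower calls, whereas mitochondria and fat oxidation genes have 18 of 44 lower without slide and 0 with it.

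Markers of other cell types were read beside these groups. Neural markers gave 5 lower and 1 higher of 9, with the neurofilament genes Nefl at 0.90, 1.12 and 1.15 at day 8 and 4.28, 4.53 and 4.86 at day 2 (-3.50 ± 0.16) and Nefm at -3.57 ± 0.20. Tubb3, the neuronal tubulin, fell by 2.59 ± 0.19, whereas Map2 rose by 0.57, a rise not called with slide in the fit (adjusted p = 0.185). Of the other markers 0 rose and 3 fell of 4 measured for endothelium, 0 and 1 of 2 for adipocytes, 1 and 1 of 5 for smooth muscle, 1 and 2 of 4 for macrophages, and 1 and 0 of 6 for osteoblasts. With slide in the fit 2 endothelial markers and 1 macrophage marker fell, and 0 others were called in these 5 lists. Normexp background correction left 1 of the 4 endothelial markers lower and moved their median from -1.44 to -0.33. The summed linear signal of the 9 neural markers was 19.8 to 20.9 times the 75th percentile at day 8 and 80.0 to 86.5 times at day 2. The sums did not overlap between the stages for endothelial markers (0.480 to 0.619 at day 8, 0.783 to 1.07 at day 2), adipocyte markers (1.94 to 2.16 at day 8, 2.49 to 3.28 at day 2) and smooth muscle markers (41.5 to 44.8 at day 8, 52.9 to 59.5 at day 2). They overlapped for macrophage markers (0.237 to 0.281 at day 8, 0.268 to 0.302 at day 2) and osteoblast markers (7.65 to 9.91 at day 8, 7.46 to 7.68 at day 2). Listed markers that were not above background on all 3 arrays of either stage were Ptprc, Itgam and Adgre1 of macrophages, Adipoq, Fabp4, Plin1, Lep and Cfd of adipocytes, Alpl and Ibsp of osteoblasts, and Vwf and Emcn of endothelium. The same held for Dcx and Nefh of the neural list and Cnn1 of smooth muscle. Dcx was above background on 2 day 8 arrays and Nefh on 1, and neither on any day 2 array, so their direction was not read. Other defining markers of the same lists were measured, among them Pecam1, Cdh5, Kdr and Tek of endothelium, Runx2, Sp7, Bglap, Dmp1, Sost and Phex of osteoblasts, Pparg and Cebpa of adipocytes, and Csf1r, Aif1, Tyrobp and Lyz2 of macrophages. The part of these markers in the results above was not tested.

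Genes of the cornified envelope, a structure of the skin, were lower in 12 of 14 measured cases, with a median of -2.25. Of 38 listed genes 30 were on the array. A dim gene could enter this count by its day 2 arrays alone, which favours lower calls, so the count cannot be taken as a share of the list. How many entered in that way was not counted. Sprr1a, a precursor of that envelope also known from injured cells, had signals of 0.76, 0.79 and 0.73 at day 8 and 3.74, 3.74 and 3.95 at day 2, a difference of -3.05 ± 0.18. Lce1f fell by 3.06 ± 0.33 and Lce1h, above background on 2 of 3 day 8 arrays, fell by 3.35 ± 0.27. The Lce genes are close copies of each other, and 4 falls were called with slide in the fit and 6 after normexp background correction. The median of the list was -0.56 after that correction.

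Several further genes were read at 1 stage only. Dhrs7c, a reductase of the sarcoplasmic reticulum, was at least 26.9-fold higher at day 8, and Pnmt, known as the enzyme that makes adrenaline, at least 16.1-fold. On the other side the cell adhesion gene Igsf5 was at least 16.2-fold lower, the tight junction claudin Cldn3 at least 12.7-fold and the transcription factor Batf3 at least 11-fold. Among genes above background on all 6 arrays the 10 largest rises also held Art1, an ADP-ribosyltransferase of the muscle surface (5.74 ± 0.17), and the 10 largest falls Cpn1, a carboxypeptidase subunit (-4.46 ± 0.37), Glipr1 (-4.33 ± 0.28) and the integrin chain Itgb7 (-4.28 ± 0.23).

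Of 15 genes often used as controls, 14 were measured, 7 were lower, 1 was higher, and the median was -0.54. Tbp differed by 0.03 ± 0.15, Hprt by -0.28 ± 0.13, Eef2 by -0.25 ± 0.18 and Rps18 by -0.30 ± 0.20, none of which passed, and the last pair changed sign after quantile normalization. Ywhaz, an adaptor protein, fell by 0.96 ± 0.16 and Rplp0, a ribosomal protein, fell by 0.81 ± 0.15 (limma adjusted p = 0.000781 and 0.00121), and Csnk2a2, a kinase subunit, rose by 1.1 ± 0.23, a call lost with slide in the fit (adjusted p = 0.103). The directions of these 3 genes were the same under each scaling run, and with slide in the fit the list gave 0 higher and 2 lower.

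Of 6566 tested probes of the non-coding set 45.8% were called, against 51.1% of 16133 mRNA probes, and the difference between these shares was not tested. In the non-coding set 19.7% of probes were higher and 26.1% lower, and among mRNA probes 21.0% and 30.0%. Of 48 probes for genes marked as lncRNA 12 were higher (25.0%) and 11 lower (22.9%). Of 157 probes for ultraconserved elements 22 were higher (14.0%) and 42 lower (26.8%). The nuclear lncRNA Neat1, the scaffold of paraspeckles, had signals of 1.63, 1.87 and 1.37 at day 8 and -1.15, -0.54 and -0.94 at day 2, a difference of 2.50 ± 0.26. Tug1 rose by 1.56 ± 0.17, Norad, which binds Pumilio proteins, by 1.23 ± 0.18 and Xist, which coats the inactive X chromosome, by 1.21 ± 0.35. Malat1 differed by 0.26 ± 0.16 and did not pass (limma adjusted p = 0.18), and no member of this list of 12 measured genes fell. Neat1, Tug1 and Norad were called also with slide in the fit.

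The widest differences in the non-coding set belonged to transcripts that the files name by accession alone. The transcript uc007cud had signals of 0.57, 0.87 and 0.75 at day 8 and -5.32, -5.42 and -6.13 at day 2, a difference of 6.36 ± 0.39, and uc009use rose by 5.17 ± 0.21. AK054319 had -4.31, -4.49 and -3.95 at day 8 and -0.27, -0.33 and 0.20 at day 2, a difference of -4.12 ± 0.19, and AK015549 fell by 4.08 ± 0.27. Curated non-coding transcripts, 186 probes in all, gave 32 higher (17.2%) and 63 lower (33.9%), against 20.7% and 28.9% of all tested probes. Among them 9130024F11Rik stood at 1.29 ± 0.14, Kis2 at -2.76 ± 0.39 and 2700099C18Rik at -2.36 ± 0.18. The array does not tell whether such a transcript is separate from a coding gene nearby, and that was not tested here.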

How the data were processed

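The authors deposited 1 scanner file for each array, made with Agilent Feature Extraction 10.5.1.1 according to the submitters' processing notes. Its processed signal, an intensity per the file headers, came with no normalization between arrays. Here that deposited intensity was converted to the log2 scale, outlier spots were dropped, the other spots of a probe were averaged, and the 75th percentile was taken off for each array. Probes well above background on 3 day 8 or 3 day 2 arrays were tested. Non-uniform spots were kept, control spots left out, and no probe was saturated.

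Stage means over all 12 arrays were fitted with limma 3.58.1 (lmFit, eBayes) in R 4.3.3 (data.table version 1.17.8), and p values were adjusted by Benjamini-Hochberg over 22699 probes at 0.05. The fit was also run on simulated arrays with known differences. These were drawn with independent scatter and no slide effect, so that run cannot speak to the part of slide. A gene was read from its brightest tested probe, and 19 of 1646 genes with several probes had opposite calls. RefSeq tables named 22216 of 37246 probes (19259 symbols), the histones through older symbols. For a gene above background on no array of a stage, the fold is a bound against the higher, on each array, of the lowest signal above background and the probe's own. The p value of such a gene used its signals under background and does not test the bound. Figures used matplotlib 3.10.9 in Python 3.11.15.

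The members and gene lists were chosen with earlier results of these data known. Named were the 10 largest called rises and falls without overlap, the 5 largest bounds each way, the 4 largest called members of a list each way with any against its majority, any member of the isoform, myogenic factor, myosin, actin, junction, lncRNA, control and cell type lists, and the 5 largest non-coding changes each way. A few genes that this rule names are not reported here singly. Alternatives covered background, scaling, filter, spot flags, arrays, slide, replicate number, weights and probe choice, and leaving out each array. The normexp correction (offset 50) used median signal and median background in place of the mean signal that had been planned. Deviations of same-numbered arrays correlated at 0.02, -0.06 and -0.06, so replicate numbers were not taken to pair the arrays. The number of arrays limits the precision.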

Additional observations from a re-analysis of the deposited data

How the results depend on the processing

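Against 11243 probes called, normexp background correction called 8360, quantile normalization 10762, the percentile over probes detected on all arrays 11106, no filter on dim probes 10166, the 6 arrays alone 11425, array weights 12188 and slide as a random block 10543, and leaving out 1 array gave 9419 to 9930. Slide as a fixed block called 3842 (1974 higher, 1868 lower), and leaving out non-uniform spots, with 13831 probes left to test, 6338 (2589 higher, 3749 lower). With the replicate number as a block 11171 probes were called. The median difference over tested probes was -0.0500 with normexp, -0.0372 with quantile normalization, -0.11 with the percentile over detected probes, -0.22 with no filter, -0.22 without non-uniform spots and -0.00838 with slide. Non-coding probes called were 28.5% with normexp, 19.1% with no filter, which adds probes near background, and 13.2% with slide, and mRNA probes called were 32.6% with no filter and 18.4% with slide. No slide held both stages, so no value within a slide could be had, and slide and stage cannot be told apart except through day 5. The 330 named values include some that were not called to begin with and had no call to lose. Of the 330, 198 stayed as they were, called or uncalled, under every alternative that gave a value. With slide, 110 called values lost their call. Where either fit made a call, signs turned for Atp2a2 with the median over its probes (0.70), Sntb1 with slide (0.51) and Foxo3 with normexp (0.0779), and Eef2 (0.18) and Rps18 (0.13), uncalled in both fits, changed sign with quantile normalization; the cause was not tested.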
